A study of Mus musculus with 88 samples.

Results

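The organic ion and drug transporters described here are the Slc22a, Slco and Abcc genes of the mouse. They were chosen by name in the deposited annotation: every gene whose name begins with Slc22a or Slco and a number, or is Abcc followed by a number alone. That gave 51 of 24453 annotated genes, of which 26 are Slc22a, 15 Slco and 10 Abcc genes, and 2 of them (Slc22a13b-ps and Slco6b1) are annotated as a pseudogene and a non-coding gene. They were measured in polyadenylated RNA of 9 tissues (liver, kidney, lung, spleen, heart and the soleus, extensor digitorum longus or EDL, gastrocnemius and tibialis muscles) from 5 Cdh15 knockout (KO) and 5 wild-type (WT) mice. Both genotypes were male C57BL/6NTac mice aged 65 to 85 days and fasted for 18 h, so each level below is that of a fasted male. Cdh15 encodes M-cadherin, a muscle adhesion protein, and the labels name the knockout without describing the allele. Each group held 5 libraries, 1 per mouse, except WT kidney and WT spleen with 4.

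Slc22a genes encode carriers of the outer cell membrane for organic cations, organic anions, carnitine and urate. Slco genes encode the organic anion transporting polypeptides, which take up bile acids, bilirubin, steroid conjugates, thyroid hormones, prostaglandins and many drugs. Most Abcc proteins are ATP-driven pumps that move conjugates of glutathione, glucuronate or sulphate out of the cell, whereas Abcc8 and Abcc9 are sulphonylurea receptor subunits of ATP-sensitive potassium channels. In the liver these carriers take up solutes from blood and pass them to bile, and in the proximal tubule of the kidney they move solutes between blood and urine.

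The 88 libraries held 8.21 M to 25.1 M counts with a median of 19.02 M (M, mega). Liver libraries ranged from 11.4 M to 22.3 M in KO and 10.6 M to 23.2 M in WT mice, and kidney libraries from 19.1 M to 21.8 M in KO and 20.6 M to 23.7 M in WT mice. Cdh15 stood at 1.06 to 4.06 CPM (counts scaled to a library of 1 M) in KO muscles and 11.7 to 23.04 CPM in WT muscles, and at 0.144 CPM or less in every other library. Levels are given in RPKM, the deposited reads per kilobase of exon and per 1 M reads. The summed RPKM of 6 hepatocyte markers was 53280 to 64574 in KO and 58229 to 66356 in WT livers, against 925 to 1325 in KO and 1073 to 1224 in WT kidneys. The 6 proximal tubule markers summed to 1.92 to 3.67 RPKM in KO and 1.13 to 8.30 RPKM in WT livers, against 31504 to 35569 RPKM in KO and 32324 to 35167 RPKM in WT kidneys.

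Among the transporters that reached 1 RPKM, the kidney was most often the top tissue, followed by the lung and the liver. Of the 51 members, 40 reached a mean of 1 RPKM in at least 1 WT tissue. Their top tissue was the kidney for 23, the lung for 8 and the liver for 6, and the heart, soleus and gastrocnemius were each the top tissue of 1. The top tissue was the same in KO mice for all 40. Of these, 14 had over 90% of their RPKM, summed over the 9 WT tissue means, in 1 tissue, and 4 (Abcc9, Slc22a5, Slc22a23 and Slco2b1) reached 1 RPKM in all 9. The share over all genes is not given for these counts, so they are not read as particular to the members. The other 11 of the 51 members stayed at a mean of 0.569 RPKM or less in every WT tissue. They were Abcc12, Slc22a13b-ps, Slc22a14, Slc22a20, Slc22a27, Slc22a29, Slco1c1 and Slco6c1, and Slc22a16, Slco6b1 and Slco6d1, which had no read in any library.

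Together the members took 6177 ± 341 CPM of KO and 6145 ± 453 CPM of WT kidney libraries and 2932 ± 117 CPM of KO and 2982 ± 244 CPM of WT liver libraries (SD, n = 5, but 4 for WT kidney). Lung followed with 1179 ± 123 CPM in KO and 1122 ± 42.4 CPM in WT mice (SD, n = 5 each). The means of the other tissues lay between 510 and 700 CPM in both genotypes. Which family carried these reads differed between the organs. Slc22a genes took 522 ± 18.98 CPM in KO and 527 ± 57.2 CPM in WT livers, against 4741 ± 213 CPM in KO and 4755 ± 326 CPM in WT kidneys. Slco genes took 1472 ± 112 CPM in KO and 1469 ± 118 CPM in WT livers, against 982 ± 127 CPM in KO and 981 ± 143 CPM in WT kidneys. Abcc genes took 938 ± 36.2 CPM in KO and 985 ± 79.3 CPM in WT livers, against 453 ± 59.0 CPM in KO and 409 ± 15.3 CPM in WT kidneys. In each family the ranges over liver and kidney libraries of a genotype did not overlap. Per length, the liver was led by Slco1b2, which made up 32.2% of the summed RPKM in KO and 31.9% in WT livers. In kidney Slc22a12, Slc22a6 and Slc22a18 made up 49.2% in KO and 50.3% in WT mice.

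Liver and kidney were compared directly, with the difference given as log2 of liver over kidney from edgeR's quasi-likelihood test and a threshold of 0.05 on the Benjamini-Hochberg adjusted p over all genes. In WT mice 38 members passed the filter on low counts, and 36 of them (94.7%) differed, 13 being higher and 23 lower in liver. Of all 14287 genes tested, 81.2% differed, 39.1% higher and 42.2% lower, so that a member that differed was not unusual. The median difference of the members was −2.72, against −0.03 over all genes. Slc22a genes were mostly lower in liver, with 4 higher, 16 lower, 1 not called and 5 not tested. Slco genes were divided, with 4 higher, 4 lower, 1 not called and 6 not tested, and of the Abcc genes 5 were higher, 3 lower and 2 not tested. In bulk tissue, fewer cells of a type and less RNA per cell cannot be told apart.

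The same comparison in the KO mice, which are other animals, gave the same count in each family, with 13 members higher and 23 lower in liver. The background was 81.2% of 14153 genes, 38.6% higher and 42.6% lower, and the median of the members was −3.003. All 13 members higher in WT livers were also higher in KO livers, and all 23 lower ones were also lower. Liver and kidney libraries did not overlap in RPKM for 34 of the 38 members in KO and 35 of 38 in WT mice, and over all genes tested the share without overlap was 79.2% in KO and 80.8% in WT mice.

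**Figure D1:**
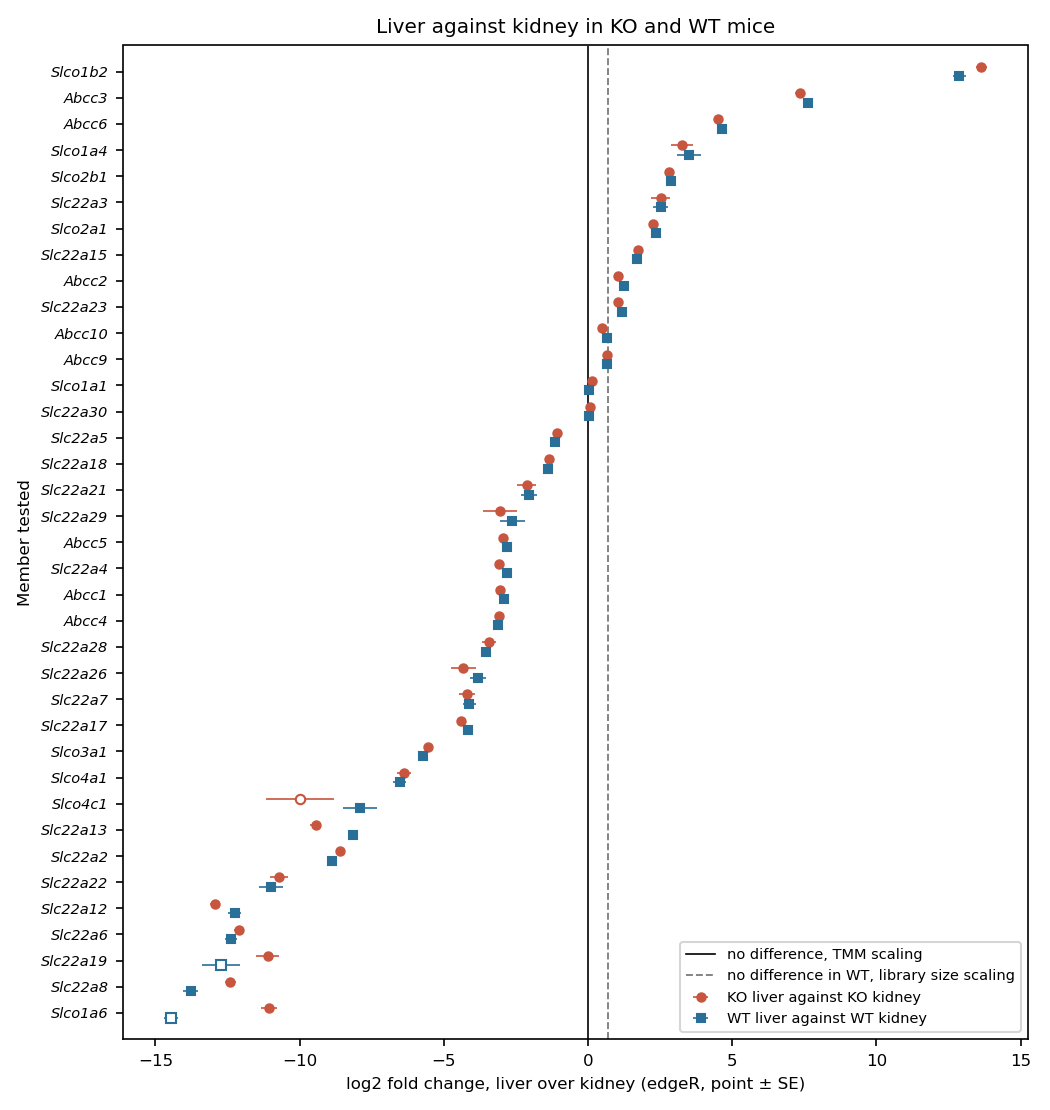
Difference between liver and kidney (log2 fold change ± SE, edgeR with TMM factors) of 37 of the 38 members tested, with KO mice as circles and WT mice as squares; open markers are members with 0 reads in 1 group, whose position depends on the prior count. The solid line is no difference and the dashed line is where no difference would lie in WT mice with library size scaling: Abcc9, Abcc10, Slco1a1 and Slc22a30 lie between the lines in WT mice and change direction with that scaling.

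The scaling matters for members near equality. TMM factors, which put most genes near no difference, were 0.775 to 0.834 in WT livers and 1.27 to 1.32 in WT kidneys, and using library sizes alone moved the median of all genes by −0.69 in WT and −0.72 in KO mice. The 13 higher and 23 lower members then became 10 higher and 26 lower in WT mice, and 10 higher and 27 lower in KO mice. The levels in RPKM given below are on the scale of library size.

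Among uptake carriers, Slco1b2 was the most liver-restricted member. It encodes a hepatocyte carrier of bilirubin, bile acids and statins, and lies on chromosome 6 of mm10 from 141629518 to 141686635 with 16 exons. Its level was 232, 271, 274, 286 and 315 RPKM in KO livers and 242, 257, 285, 293 and 302 RPKM in WT livers, against 0.0139 to 0.0579 RPKM in KO kidneys and 0, 0.0403, 0.0884 and 0.10 RPKM in WT kidneys. All liver libraries were far above all kidney libraries and KO and WT livers overlapped. The log2 difference in WT mice was 12.88 ± 0.24 (SE, edgeR adjusted p = 2.58e-16), and the summed counts gave a 4880-fold higher share of reads in liver (95% counting interval 3005 to 8538). Liver held 99.9% of its RPKM summed over the WT tissues.

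The other Slco genes higher in liver were less restricted. Slco1a4, a carrier of bile acids and cardiac glycosides, stood at 8.33, 17.02, 18.04, 18.8 and 21.8 RPKM in KO livers and 10.97, 15.7, 15.96, 24.97 and 27.7 RPKM in WT livers, against 1.45 to 4.41 RPKM in KO and 1.79 to 4.08 RPKM in WT kidneys. It did not overlap between the organs but varied most between mice, with a coefficient of variation of 30.1% in KO and 36.8% in WT livers, where the median of 15 members at 10 CPM or more was 13.4% in KO and 11.5% in WT. The log2 difference in WT mice was 3.496 ± 0.41 (SE, edgeR adjusted p = 8.21e-05). Slco2b1, a carrier of steroid sulphates, stood at 24.6 to 34.0 RPKM in KO and 24.0 to 31.9 RPKM in WT livers, against 5.60 to 6.19 RPKM in KO and 4.92 to 6.33 RPKM in WT kidneys. Slco2a1, the prostaglandin transporter, stood at 17.8 to 23.4 RPKM in KO and 16.2 to 22.1 RPKM in WT livers, against 6.25 to 8.28 RPKM in KO and 5.38 to 6.92 RPKM in WT kidneys. These 2 genes were higher in liver in WT mice by 2.88 ± 0.07 and 2.34 ± 0.09 on the log2 scale (SE).

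Among the conjugate pumps of the Abcc family, some were higher in liver and others in kidney. Abcc3, a pump that returns conjugates from hepatocytes to blood, had 62.8, 70.6, 72.9, 81.3 and 89.0 RPKM in KO livers and 67.5, 74.6, 82.5, 88.4 and 89.0 RPKM in WT livers, against 0.629 to 0.994 RPKM in KO and 0.547 to 0.885 RPKM in WT kidneys. Its log2 difference in WT mice was 7.64 ± 0.14 (SE, edgeR adjusted p = 1.32e-16), with no overlap between the organs. Abcc6, whose loss causes mineral deposits in soft tissue, had 26.4 to 29.9 RPKM in KO and 23.6 to 31.1 RPKM in WT livers, against 1.73 to 2.43 RPKM in KO and 1.54 to 1.97 RPKM in WT kidneys, a log2 difference of 4.63 ± 0.09 in WT mice. Abcc2, the pump of the bile canaliculus and of the tubule brush border, was abundant in both organs. It had 62.2, 69.4, 72.1, 72.6 and 75.9 RPKM in KO livers and 69.4, 70.1, 76.7, 77.6 and 78.1 RPKM in WT livers, against 45.8, 52.1, 54.6, 57.7 and 70.3 RPKM in KO kidneys and 44.1, 51.0, 52.3 and 54.1 RPKM in WT kidneys. The organs were separate in WT mice and overlapped in KO mice, and the log2 difference in WT mice was 1.25 ± 0.08 (SE, edgeR adjusted p = 2.85e-10).

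Abcc4, a pump of cyclic nucleotides and urate, was lower in liver, with a log2 difference of −3.11 ± 0.13 (SE) in WT mice, and Abcc1 and Abcc5 were also lower. Abcc9 and Abcc10 had log2 differences of 0.65 ± 0.11 and 0.67 ± 0.07 with TMM factors, which became −0.04 and −0.02 with library size alone. Abcc8 and Abcc12 were not tested in this comparison.

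In the kidney, organic anion carriers of the Slc22a family dominated. Slc22a12, the urate exchanger of the tubule brush border (chromosome 19, 6535856 to 6543070, minus strand, 10 exons), had the highest level of any member in any tissue. It stood at 0.0348 to 0.0778 RPKM in KO and 0 to 0.287 RPKM in WT livers, against 689, 706, 763, 776 and 817 RPKM in KO kidneys and 675, 762, 767 and 846 RPKM in WT kidneys. Its log2 difference in WT mice was −12.26 ± 0.23 (SE, edgeR adjusted p = 2.38e-15). The kidney held 99.8% of its RPKM summed over the WT tissues.

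Other organic anion carriers of high level were those that take up organic anions from blood into the tubule cell, Slc22a6 (OAT1) and Slc22a8 (OAT3). Slc22a6 (chromosome 19, 8617996 to 8628299, plus strand) had at most 0.0445 RPKM in KO and 0.0892 RPKM in WT livers, against 234, 245, 248, 272 and 277 RPKM in KO kidneys and 226, 252, 277 and 279.9 RPKM in WT kidneys. Slc22a8 (chromosome 19, 8593182 to 8611835, plus strand) had 3 reads in all KO and 1 read in all WT livers, against 158, 161, 183, 186 and 186 RPKM in KO kidneys and 148, 159.6, 179 and 209.8 RPKM in WT kidneys. Kidney and liver libraries of both genes lay far apart, and KO and WT kidneys overlapped. The log2 difference of Slc22a6 in WT mice was −12.37 ± 0.20 (SE, edgeR adjusted p = 6.11e-17). For Slc22a8, with 1 read in WT livers, the share of reads was 32395-fold lower in liver with a 95% counting interval of 5814-fold to 1279530-fold.

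Slc22a2 (OCT2), the tubule's carrier for organic cations, had 0.139 to 0.260 RPKM in KO and 0.152 to 0.1996 RPKM in WT livers, against 113, 125, 129, 133 and 137 RPKM in KO kidneys and 114, 124, 133 and 139 RPKM in WT kidneys. Its log2 difference in WT mice was −8.87 ± 0.12 (SE, edgeR adjusted p = 3.44e-18). Slc22a13, a carrier of nicotinate and urate, had 32.9 to 43.1 RPKM in KO and 31.3 to 37.8 RPKM in WT kidneys, with a log2 difference of −8.15 ± 0.17 in WT mice. Of its 50-base stretches 36.0% also occur in the pseudogene Slc22a13b-ps, so its level is uncertain.

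Several kidney carriers had no or almost no read in liver. Slco1a6, a kidney member of the OATP family in mice, had 4 reads in all KO livers and none in WT livers, against 52.9, 63.1, 66.7, 76.3 and 79.4 RPKM in KO kidneys and 56.2, 61.4, 65.2 and 70.4 RPKM in WT kidneys. Taking 3 reads over the WT livers as the limit, its share of reads was at least 5238-fold lower in WT livers than in WT kidneys. Slc22a19, an organic anion carrier, was at least 1591-fold lower in WT livers by the same limit and stood at 22.4 to 43.1 RPKM in KO and 21.3 to 37.1 RPKM in WT kidneys. Slc22a22, a prostaglandin carrier of the mouse kidney, had 1 read in all livers of each genotype and 16.4 to 24.7 RPKM in KO and 15.9 to 28.3 RPKM in WT kidneys. Slco4c1 had 0 reads in KO and 1 read in WT livers, against 2.28 to 6.23 RPKM in KO and 1.59 to 3.55 RPKM in WT kidneys. These limits and intervals cover counting error only.

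Slco3a1 and Slco4a1, carriers of prostaglandins and thyroid hormones in human cells, were also lower in liver than in kidney. Slco3a1, of whose RPKM summed over the WT tissues the kidney held 33.6%, had 53.6 to 67.0 RPKM in KO and 56.7 to 71.0 RPKM in WT kidneys with a log2 difference of −5.74 ± 0.11 between liver and kidney in WT mice. Slco4a1 had 5.43 to 8.63 RPKM in KO and 7.46 to 9.17 RPKM in WT kidneys with a log2 difference of −6.53 ± 0.22. Slc22a17, a receptor for lipocalin-2, was also lower in liver (−4.17 ± 0.15).

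**Figure D2:**
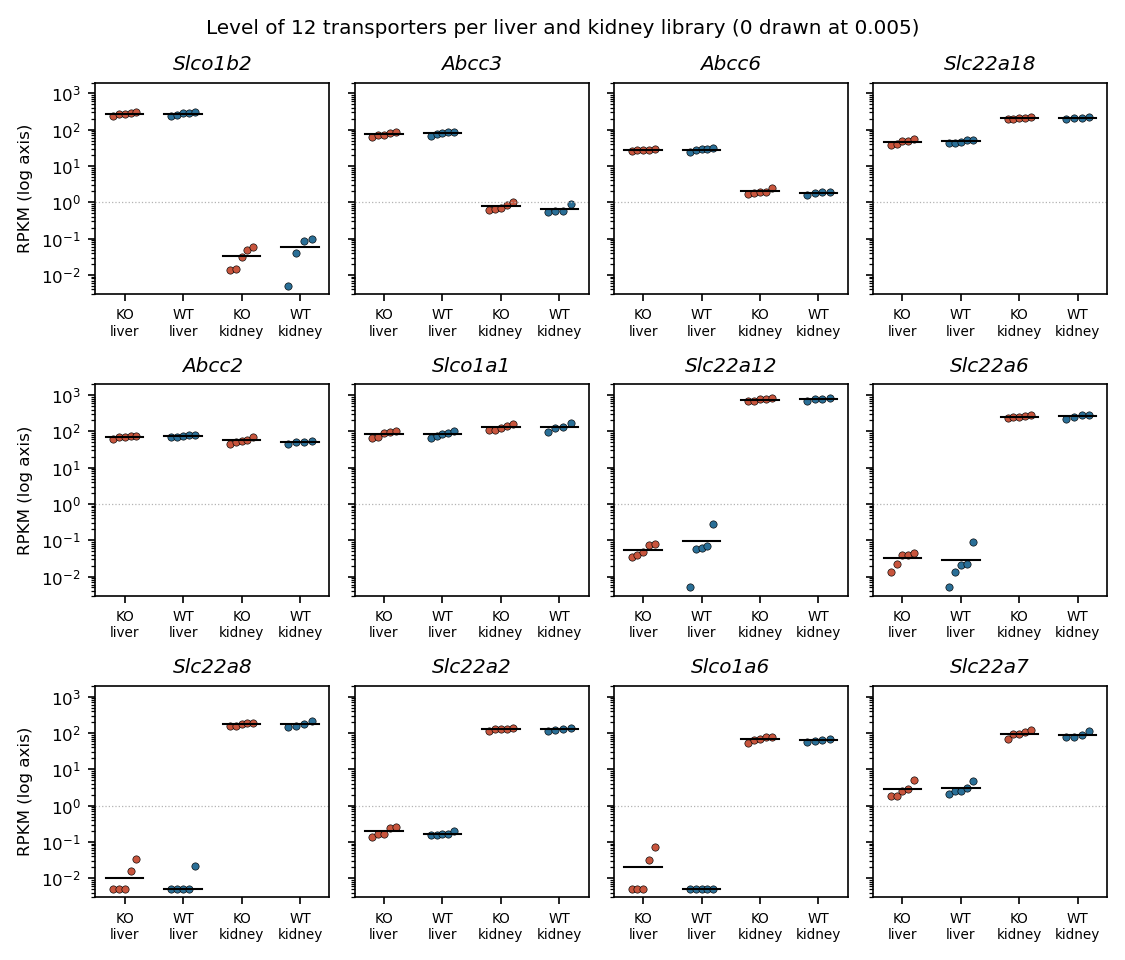
RPKM of 12 members in each liver and kidney library on a log axis, with values of 0 drawn at 0.005 and the mean as a black line; KO groups are left of WT groups. Slco1b2, Abcc3 and Abcc6 are separated upward in liver and Slc22a12, Slc22a6, Slc22a8, Slc22a2, Slco1a6 and Slc22a7 upward in kidney, while Slc22a18, Slco1a1 and Abcc2 are within about 1 log10 unit in both organs.

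A further set was found in both organs, at a low level in liver for Slc22a7. Slco1a1, a carrier of steroid conjugates and bile acids, had 67.8, 71.4, 91.2, 98.8 and 99.6 RPKM in KO livers and 65.2, 72.3, 85.8, 93.0 and 100.0 RPKM in WT livers, against 109, 109, 123, 143 and 160.3 RPKM in KO kidneys and 98.4, 127, 133 and 169.9 RPKM in WT kidneys. The organs were separate in KO mice and overlapped in WT mice. Its log2 difference in WT mice was 0.03 ± 0.15 with TMM factors (SE, edgeR adjusted p = 0.857), not called, and −0.65 with library size alone.

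Slc22a18, an imprinted gene with a poorly known substrate, had 38.8 to 56.1 RPKM in KO and 42.8 to 53.4 RPKM in WT livers, against 192 to 217 RPKM in KO and 199.9 to 217 RPKM in WT kidneys (log2 difference in WT mice −1.38 ± 0.08). Slc22a7 (OAT2) had 1.79 to 5.20 RPKM in KO and 2.04 to 4.73 RPKM in WT livers, against 69.5 to 118 RPKM in KO and 75.5 to 112 RPKM in WT kidneys (−4.12 ± 0.22). Slc22a5, the carnitine carrier, had 17.2 to 30.8 RPKM in KO and 16.7 to 29.9 RPKM in WT livers, against 65.9 to 87.7 RPKM in KO and 66.6 to 87.9 RPKM in WT kidneys (−1.13 ± 0.14). It shares 26.3% of its 50-base stretches with other genes, among them its neighbour Slc22a21. All 3 were lower in liver, without overlap between the organs.

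Smaller differences upward in liver were those of Slc22a3 (OCT3) with 2.52 ± 0.26, Slc22a15 with 1.70 ± 0.14 and Slc22a23 with 1.19 ± 0.06 on the log2 scale in WT mice. The mean levels of Slc22a3 in WT mice were low, 1.03 RPKM in liver and 0.285 RPKM in kidney.

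Neighbouring genes could differ sharply. Of the 51 members, 30 lie in 10 genomic runs in which successive starts are under 200 kb apart. The longest, 955 kb of chromosome 19, holds 8 Slc22a genes. In that run Slc22a6, Slc22a8 and Slc22a19 were near 0 in liver and high in kidney, while Slc22a30 was abundant in both. Slc22a26 had means of 0.156 RPKM in WT livers and 3.60 RPKM in WT kidneys, and Slc22a27 and Slc22a29 stayed under 1 RPKM in both. On chromosome 11 the ergothioneine carrier Slc22a4 and its neighbour Slc22a21 had means of 1.66 and 0.2002 RPKM in WT livers, against 18.8 and 1.36 RPKM in WT kidneys. On chromosome 6, Slco1c1 next to Slco1b2 had 0.0208 RPKM in WT livers and 0.0504 RPKM in WT kidneys, and Slco1a5 next to Slco1a6 had 0.0124 RPKM in WT livers and 0.0146 RPKM in WT kidneys.

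**Figure D3:**
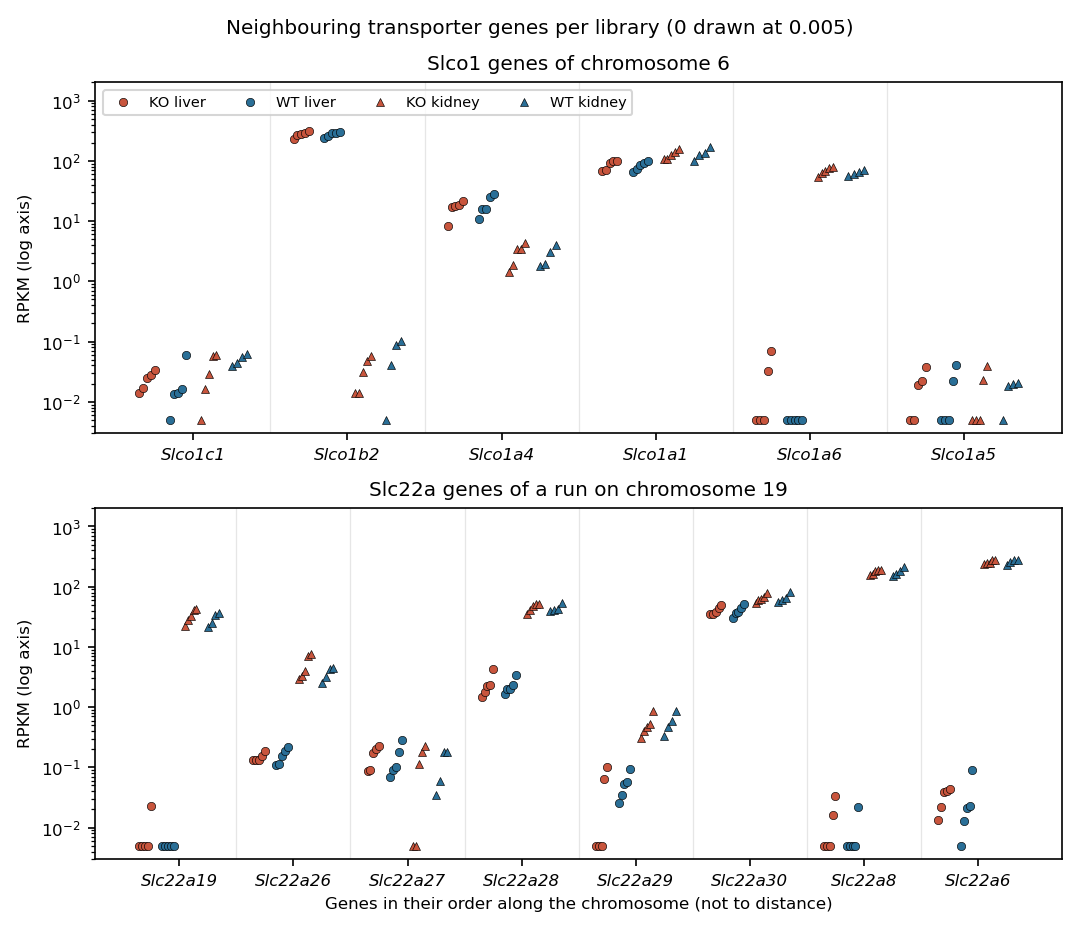
RPKM in each library on a log axis of the Slco1 genes of chromosome 6 and of the 8 Slc22a genes of the chromosome 19 run, in genomic order, with liver as circles, kidney as triangles, KO in red, WT in blue and values of 0 drawn at 0.005. Successive members such as Slc22a30 (mean 40.3 RPKM in WT liver) and Slc22a8 (mean 0.00434 RPKM in WT liver) lie orders of magnitude apart in liver.

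The pair Slc22a28 and Slc22a30, organic anion carrier genes of the chromosome 19 run, is shown for its likeness in sequence beside its unlike levels in liver. Their promoters were identical at 288 of 294 aligned bases (98.0%). The windows printed are chr19:8131983-8132226 (minus strand), which ends 1 base before the start of Slc22a28, and chr19:8405112-8405355 (minus strand), which ends 7 bases before the start of Slc22a30, both from RefSeq on GRCm38.p6. Capitals mark the 6 bases that differ.
Slc22a28: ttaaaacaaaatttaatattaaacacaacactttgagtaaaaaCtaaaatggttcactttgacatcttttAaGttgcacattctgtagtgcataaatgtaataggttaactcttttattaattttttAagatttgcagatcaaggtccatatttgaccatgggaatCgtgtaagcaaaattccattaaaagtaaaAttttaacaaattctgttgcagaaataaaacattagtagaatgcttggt
Slc22a30: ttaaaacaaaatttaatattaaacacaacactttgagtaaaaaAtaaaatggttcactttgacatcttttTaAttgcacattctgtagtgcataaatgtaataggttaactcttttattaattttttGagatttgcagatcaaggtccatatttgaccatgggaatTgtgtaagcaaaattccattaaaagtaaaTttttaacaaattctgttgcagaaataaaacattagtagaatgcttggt
Slc22a28 had 1.45, 1.77, 2.23, 2.30 and 4.32 RPKM in KO livers and 1.67, 2.0005, 2.03, 2.30 and 3.37 RPKM in WT livers, against 35.2, 40.2, 47.4, 52.0 and 52.3 RPKM in KO kidneys and 38.8, 40.6, 43.2 and 53.0 RPKM in WT kidneys. Slc22a30 had 34.8, 35.7, 38.1, 44.5 and 48.7 RPKM in KO livers and 29.7, 36.7, 38.7, 45.1 and 51.5 RPKM in WT livers, against 53.3, 61.0, 61.7, 68.6 and 78.4 RPKM in KO kidneys and 54.8, 60.5, 65.4 and 81.5 RPKM in WT kidneys. Slc22a28 was thus at a kidney level near that of its relative but low in every liver library.

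The RPKM of Slc22a30 was 11.3 to 26.4 times that of Slc22a28 in KO livers and 14.6 to 21.9 times in WT livers, against 1.30 to 1.52 times in KO kidneys and 1.41 to 1.54 times in WT kidneys. The log2 difference of Slc22a28 in WT mice was −3.55 ± 0.16 (SE, edgeR adjusted p = 7.76e-10). That of Slc22a30 was 0.02 ± 0.14 with TMM factors, not called, and −0.66 with library size alone. Of the 50-base stretches of Slc22a28 transcripts, 53.9% also occur in other genes, 53.3% in Slc22a30, and 34.2% of those of Slc22a30 are shared. The sources used here do not say how such reads were divided, so the levels of the pair are uncertain.

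In WT mice, liver, kidney, lung, spleen and heart were each set against the mean of the other 8 tissues on the log2 scale. The muscles together were set against the mean of the inner organs (heart, kidney, liver, lung and spleen). These comparisons covered 43 members tested among 16842 genes. In WT liver 34 members were called, 22 higher and 12 lower, against 78.6% of all genes (36.4% higher and 42.3% lower). In WT kidney 39 were called, 31 higher and 8 lower, against 74.5% of genes (40.2% and 34.3%). The share of members called in these organs was therefore at or above that of all genes, and in kidney the members were mostly higher. In WT lung 28 were called, 17 higher and 11 lower, against 81.5% of genes (43% and 38.5%). In WT spleen 20 were called, 6 higher and 14 lower, against 79.7% of genes (41.5% and 38.2%). In WT heart 20 were called, 11 higher and 9 lower, against 68.1% of genes (34.6% and 33.4%). In WT muscle 31 were called, 8 higher and 23 lower, against 84.4% of genes (40% and 44.4%), and in these tissues a smaller share of members than of genes was called.

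These splits depend on the scaling and the tool. With library size alone they were 24 higher and 3 lower in lung and 16 higher and 12 lower in spleen, since that scaling moved the median of all genes by 1.18 in lung and 1.01 in spleen. It moved the median by −0.45 in liver, 0.31 in kidney and −0.79 in muscle. With limma on log2(RPKM + 0.1) the splits were 20 higher and 21 lower in liver, 20 and 20 in lung, 8 and 25 in heart and 6 and 37 in muscle. It called 42 members in spleen, 15 higher and 27 lower. The DESeq2 Wald test gave 18 higher and 18 lower in lung and 11 higher and 17 lower in heart. The 4 muscles of a mouse entered the fit as separate libraries.

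The lung's leading member was Slco2a1, the prostaglandin transporter, with 82.2, 101, 106, 129 and 134 RPKM in KO and 88.3, 90.01, 98.2, 101 and 116 RPKM in WT lungs. It was higher in WT lung than the mean of the other 8 WT tissues by 4.15 ± 0.09 on the log2 scale (SE, edgeR adjusted p = 2.64e-33). Slco4c1, a carrier of digoxin and thyroid hormone in human and rat kidney, was higher in lung than in kidney in these mice, at 7.86 to 10.5 RPKM in KO and 8.85 to 11.2 RPKM in WT lungs. Slco1a5 reached 1 RPKM only in lung, with 1.94 to 3.62 RPKM in KO and 1.61 to 5.24 RPKM in WT lungs. Abcc3 stood at 21.5 to 23.4 RPKM in KO and 19.9 to 23.1 RPKM in WT lungs. Slco3a1 and Abcc5 followed Slco2a1, with means of 34.0 ± 3.77 and 30.4 ± 0.92 RPKM in KO lungs and 33.3 ± 3.01 and 29.9 ± 4.62 RPKM in WT lungs (SD, n = 5).

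In spleen the leading members were Slco2a1 and Slco2b1, with means of 28.0 ± 3.23 and 26.2 ± 2.02 RPKM in KO (SD, n = 5) and 28.8 ± 4.62 and 26.7 ± 6.24 RPKM in WT spleens (SD, n = 4). Abcc3 followed in WT spleen with 10.9 ± 1.93 RPKM (SD, n = 4), against 11.1 ± 1.09 RPKM in KO spleen (SD, n = 5). Slco2a1 was higher in WT spleen than in the other WT tissues by 2.34 ± 0.11, Slco2b1 by 1.09 ± 0.07 and Abcc3 by 2.86 ± 0.10 on the log2 scale (SE).

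In heart and in each skeletal muscle the member of highest level was the channel subunit Abcc9. It stood at 42.6 ± 3.62 RPKM in KO and 43.9 ± 0.908 RPKM in WT hearts, and at means of 35.0 to 46.2 RPKM in the 4 KO muscles and 35.6 to 47.0 RPKM in the 4 WT muscles (n = 5 each). It was higher in WT muscle than the mean of the inner organs, which includes the heart, by 3.68 ± 0.05 (SE, edgeR adjusted p = 2.72e-43). In heart Slco3a1 followed, with 38.9 ± 3.67 RPKM in KO and 37.6 ± 3.27 RPKM in WT hearts (SD, n = 5 each). Its log2 difference between WT heart and the mean of the other 8 WT tissues was 2.10 ± 0.08. WT kidney had a higher mean of Slco3a1, 60.8 RPKM. For the pump Abcc5, next in level in heart, the log2 difference from the other tissues was 0.06 ± 0.07, not called, and −0.02 with library size alone. Abcc8, the relative of Abcc9, was a heart gene, with 5.87 ± 0.942 RPKM in KO and 5.87 ± 0.508 RPKM in WT hearts (SD, n = 5 each) and means of 0.345 to 0.556 RPKM in WT muscles. Slco5a1, whose substrate is not established, was higher in WT muscle than the mean of the inner organs by 5.18 ± 0.11. Its WT means were 1.87 RPKM in gastrocnemius to 3.94 RPKM in soleus. They were 1.75 RPKM in heart, 1.11 RPKM in spleen, 0.381 RPKM in lung, 0.00376 RPKM in liver and 0.00943 RPKM in kidney. Against that mean, the pumps Abcc1 and Abcc5 were higher in WT muscle by 2.11 ± 0.04 and 1.51 ± 0.05. Both had their highest WT mean in lung, at 10.1 and 29.9 RPKM, and their lowest in liver, at 0.231 and 0.677 RPKM. Slco2a1 and Abcc3 were lower in WT muscle, with log2 differences of −3.37 ± 0.10 and −4.35 ± 0.11.

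The knockout was not accompanied by a detected change of any transporter in any tissue. Of 26 members tested in liver, 37 in kidney, 27 in lung, 18 in spleen and 21 in heart, 0 were called in KO against WT by edgeR, and 0% of all genes were called there. Of 18 members tested in each of soleus, EDL and gastrocnemius and 16 in tibialis, 0 were called as well, where Cdh15 was the 1 gene called (0.00771%, 0.00777%, 0.00792% and 0.0081% of genes). The DESeq2 Wald test and limma also called 0 members in each tissue. Over all genes the DESeq2 Wald test called 143 in soleus, where it gave an adjusted p for 6 members only, 4 in kidney, 3 in EDL, 2 in gastrocnemius, 1 in tibialis and 0 in the other tissues. At an unadjusted p under 0.05 edgeR gave 1 member in kidney, lung and heart each, 3 in soleus and 0 elsewhere. Soleus had 2235 of its 12965 genes below that p.

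**Figure D4:**
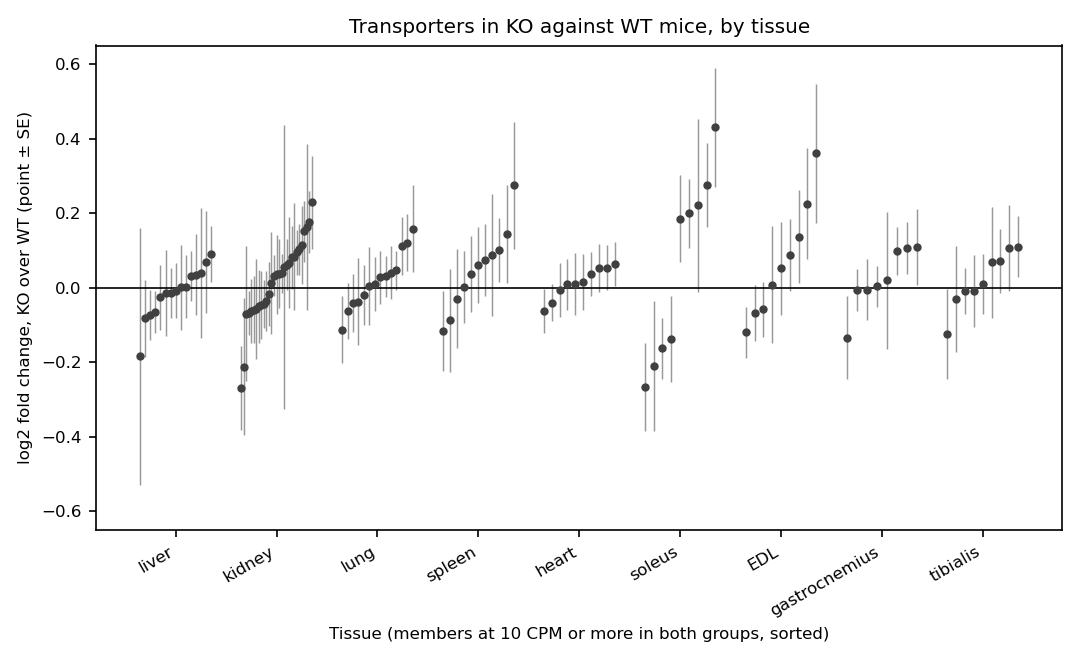
Difference between KO and WT mice (log2 fold change ± SE, edgeR) of members at 10 CPM or more in each of 9 tissues, with a line at no difference. The differences lie between −0.27 and 0.43, and no member passed the threshold.

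For abundant members the 95% interval of the log2 difference reached a median of ±0.17 in liver and ±0.18 in kidney around the fitted value. Among 15 members at 10 CPM or more in liver the log2 differences lay between −0.18 and 0.09 with a median SE of 0.09, and among 29 in kidney between −0.27 and 0.23 with a median SE of 0.09. The 9 members in soleus ranged more widely, between −0.27 and 0.43. The member of smallest p in kidney was Slco4a1, with 5.43 to 8.63 RPKM in KO and 7.46 to 9.17 RPKM in WT kidneys, which overlap, and a log2 difference of −0.27 ± 0.11 (SE, edgeR adjusted p = 0.9996). In liver it was Slc22a4 with −0.25 ± 0.17, in lung Slc22a13b-ps with −0.93 ± 0.35, in spleen Slc22a5 with 0.27 ± 0.17 and in heart Slco2a1 with 0.27 ± 0.13. None of these passed the adjustment. In EDL it was Slco2a1 with 0.32 ± 0.17, in gastrocnemius Slc22a15 with −0.37 ± 0.24 and in tibialis Abcc10 with 0.26 ± 0.15.

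In soleus 1 KO library held the outlying KO values of Slco5a1 and Abcc9. Slco5a1 had 4.09, 4.86, 4.94, 4.9997 and 8.77 RPKM in KO and 3.44, 3.77, 3.996, 4.16 and 4.35 RPKM in WT soleus, and the highest value was that of KO mouse 3805666. The groups overlapped, and the log2 difference was 0.43 ± 0.16 (SE, edgeR adjusted p = 0.243), or 0.22 without that mouse (edgeR adjusted p = 0.364). Abcc9 had 27.5, 35.9, 36.0, 37.8 and 37.9 RPKM in KO and 34.8, 39.3, 42.0, 43.6 and 44.7 RPKM in WT soleus, and the lowest value was that of the same KO mouse. Its log2 difference was −0.27 ± 0.12 (SE, edgeR adjusted p = 0.279), or −0.18 without that mouse (edgeR adjusted p = 0.469). Slco3a1 had a log2 difference of 0.28 ± 0.11 (SE, edgeR adjusted p = 0.254), or 0.25 without that mouse (edgeR adjusted p = 0.445).

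Whether the genotype difference itself differed between liver and kidney was tested as an interaction over 19 libraries. Of 38 members 0 were called by edgeR, as were 0% of 14759 genes; at an unadjusted p under 0.05 there were 316 genes and 0 members. The smallest p among the members was that of Slc22a13 (−1.29 ± 0.63, SE, edgeR adjusted p = 1), which had 5 reads in all KO livers and 13 in all WT livers.

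Other transporters of bile acids, lipids and drugs were also found on both sides of the comparison of liver with kidney. Their list also holds the scaffold genes Pdzk1, Slc9a3r1 and Slc9a3r2, so its counts are not of transporters alone. Of 26 listed genes 24 were tested, and 9 were higher, 14 lower and 1 not called in WT livers against WT kidneys (8 higher and 15 lower with library size alone), with a median log2 difference of −1.51. Of all genes 39.1% were higher and 42.2% lower in that comparison. In KO mice 8 were higher, 14 lower and 2 not called. Abcb11, the bile salt pump of the canaliculus, stood at 82.8 ± 8.62 RPKM in KO and 82.9 ± 8.07 RPKM in WT livers (SD, n = 5 each), against 0.010 ± 0.0069 RPKM in KO (SD, n = 5) and 0.00495 ± 0.0099 RPKM in WT kidneys (SD, n = 4). Slc10a1, the sodium-coupled bile acid carrier of hepatocytes, stood at 348 ± 22.5 RPKM in KO and 353 ± 21.7 RPKM in WT livers. On the kidney side, the phosphate and urate carrier Slc17a1 had 4.64 ± 0.427 RPKM in KO and 4.64 ± 0.526 RPKM in WT livers (SD, n = 5 each), against 289 ± 19.6 RPKM in KO (SD, n = 5) and 284 ± 10.9 RPKM in WT kidneys (SD, n = 4). The urate pump Abcg2 and Pdzk1, a scaffold that binds the Slc22a12 protein, were lower in WT liver, with log2 differences of −1.80 ± 0.09 and −3.20 ± 0.08 (SE).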

How the data were processed

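Polyadenylated RNA was extracted with MagMax and made into stranded KAPA libraries, per the labels, from 9 tissues of 10 mice with separate animal numbers. The authors' deposited table holds expected counts per Entrez gene on mm10 (build per the submitters' processing notes). A second deposited table gives RPKM. Its median ratio to the counts scaled to exon length and library total was 1 to 1.00001 over genes with 200 or more counts. Single members departed from that scaling. Abcc5, with 5810 exonic bases, had means of 37.2 CPM and 9.37 RPKM in WT hearts, above what the scaling gives. The aligner, the counter and any use of the strand are not given in the sources used here. Of the count values 85.6% were whole, and 28 members had a fractional value in some library. Counts were rounded to whole numbers, although raw counts had been assumed in planning. The 22 marker rows, at most 0.0323% of a library, were left out.

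Counts were fitted with edgeR 4.0.16 in R 4.3.3 (robust quasi-likelihood F test, TMM factors, Benjamini-Hochberg over all genes tested, threshold 0.05). The filter, filterByExpr, kept genes with about 10 counts, scaled to depth, in as many libraries as the smallest group held. It also required 15 counts in all. A member could thus pass through the organ where it was high, as Slco1a6 and Slc22a19 did with no read in WT livers. Genotypes were fitted within each tissue, and the tissues of WT mice in one fit. The standard error was taken from the F statistic. The fits were tested on simulated data. For WT liver against WT kidney, 200 of 13798 genes were changed. Of those changed 1.5-fold 87% and of those changed 2-fold 98% were recovered, with 12 wrong calls. The real comparison called 81.2% of genes, so the simulation does not test the scaling between these organs. Libraries held 8.21 M to 25.1 M counts, so 3 reads correspond to 0.119 to 0.366 CPM. Over 172 replicate pairs the smallest chi-square per gene was 5.05, so none was a copy. Liver and kidney share mice: over 9 such pairs, deviations from the group means correlated at −0.03 to 0.26 (6 above 0.1, genes at 10 CPM or more), and the mouse was tried as a replicate block.

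The alternatives were DESeq2 1.42.0 size factors, the Wald test of DESeq2, a filter of 1 read only, limma 3.58.1 on log2(RPKM + 0.1), age as a covariate, the mouse as a block and each mouse left out. Library size without factors was added after seeing the data. Members and lists were chosen with earlier results of these data known. Named members are the 12 called members of largest fold each way in WT liver against WT kidney at 1 CPM or more, the 3 of highest mean RPKM per WT tissue, the member of smallest p in each comparison without a call, and members of a genomic run at 1 RPKM or more in WT liver or kidney. Others, such as Abcc8, Slco5a1 and Slco4c1 in lung, were named after their values were seen. Some listed genes and 1 member are not reported here, although counts over the members include them. Coordinates come from the deposited annotation, promoters from RefSeq (41 of 51 members matched), and shared 50-base stretches from GENCODE transcripts of the same build.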

Additional observations from a re-analysis of the deposited data

Results flagged for a closer look

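In 17 of 291 groups of 4 or 5 libraries with a mean of 1 RPKM or more (5.84%), 1 library stood apart from the rest of its group by Dixon's criterion, which chance alone meets in about 1 in 20 groups. Of these, 12 were KO groups and 5 were WT groups.

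In liver, heart, EDL and gastrocnemius no member was singled out. In kidney the lowest WT library had 5.15 RPKM of Abcc4 where the others had 6.65 to 6.91 RPKM, and the highest WT library had 71.0 RPKM of Slco3a1 where the others had 56.7 to 58.0 RPKM. Both came from WT mouse 3817948.

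In lung the KO libraries that stood apart had 2.73 RPKM of Abcc4 (lowest), 3.68 RPKM of Slc22a15, 3.62 RPKM of Slco1a5 and 7.53 RPKM of Slco2b1 (highest). The WT one had 5.32 RPKM of Slco2b1 (lowest). In spleen the KO libraries had 0.730 RPKM of Slc22a21 and 6.44 RPKM of Slc22a5 (lowest) and 2.98 RPKM of Slc22a23 and 3.38 RPKM of Slc22a4 (highest), and the WT one had 0.837 RPKM of Slco4a1 (lowest).

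In soleus KO mouse 3805666 had 27.5 RPKM of Abcc9 (lowest) and 8.77 RPKM of Slco5a1 (highest), another KO library had 0.610 RPKM of Slc22a17 (lowest), and 1 WT library had 3.57 RPKM of Abcc4 (highest). In tibialis 1 KO library had 3.47 RPKM of Slco5a1 (highest). KO mouse 3817943 accounted for 4 of the 17 (Slc22a15 and Slco1a5 in lung, Slc22a5 in spleen and Slco5a1 in tibialis). What set these libraries apart was not tested.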

How the results depend on the processing

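Of 246 alternative counts of called members 244 lay within 1.5 times the reported count. The other 2 were limma on log2(RPKM + 0.1) in WT spleen (42 against 20) and WT heart (33 against 20). Of 850 alternative fold changes of named members 834 kept direction and side of the threshold, 15 reversed and 1 became a call (Abcc5 in WT heart, 0.17 with limma against 0.06). The reversals in WT liver against kidney came with limma and with library size alone, each in that order: Abcc9 (−0.031 and −0.039), Abcc10 (−0.023 and −0.018), Slco1a1 (−0.65 and −0.65) and Slc22a30 (−0.71 and −0.66). Slc22a30 was also at −0.0015 with DESeq2 size factors and −0.0042 with the DESeq2 Wald test. Abcc5 in WT heart was −0.023 with library size alone. Leaving out each mouse gave −0.049 to 0.14 for Slco1a1 and −0.043 to 0.092 for Slc22a30. Limma on RPKM and library size alone both lack TMM factors, so their lower values in liver follow from the scaling by construction. With the mouse as a replicate block the liver and kidney counts stayed at 36, and 1 call was lost, Slc22a13 in WT lung against the other tissues (adjusted p = 0.0516, count 27 against 28). Calls of members at a few reads were lost without single mice in the comparisons with several tissues. Depth limits members with under 10 reads in liver, whose fold changes depend on the prior count.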

Other observations

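Enzymes of conjugation and of glutathione metabolism were compared between the organs as well. The 27 listed genes include Gclc, Gclm and Gss, which serve glutathione synthesis, and Ggt1, so not all are conjugating enzymes. In WT livers against WT kidneys 19 were higher, 7 lower and 1 not called (19 higher and 8 lower with library size alone). Their median log2 difference was 4.17. Of all genes 39.1% were higher and 42.2% lower in that comparison, with a median of −0.03. The counts in KO mice were 19 higher, 7 lower and 1 not called, and 18 higher, 8 lower and 1 not called with library size alone. Gsta3, a glutathione transferase, stood at 751 ± 155 RPKM in KO and 761 ± 99.8 RPKM in WT livers (SD, n = 5 each), against 64.2 ± 6.10 RPKM in KO (SD, n = 5) and 67.2 ± 7.96 RPKM in WT kidneys (SD, n = 4). Ggt1, which breaks down glutathione outside the cell, went the other way, with 0.0429 ± 0.0714 RPKM in KO and 0.0598 ± 0.0248 RPKM in WT livers (SD, n = 5 each), against 472 ± 28.5 RPKM in KO (SD, n = 5) and 453 ± 25.0 RPKM in WT kidneys (SD, n = 4). The glucuronyl transferase gene Ugt2b38 was also lower in liver, with a log2 difference of −5.38 ± 0.19 (SE) in WT mice.

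Regulators known to act on such transporters were measured as well. Nr1i3, the receptor CAR that responds to foreign compounds, stood at 135 ± 21.4 RPKM in KO and 139.8 ± 5.50 RPKM in WT livers (SD, n = 5 each), against 0.158 ± 0.102 RPKM in KO (SD, n = 5) and 0.187 ± 0.0634 RPKM in WT kidneys (SD, n = 4). Hnf4a had 162 ± 24.3 RPKM in KO and 164 ± 21.4 RPKM in WT livers (SD, n = 5 each), against 166 ± 12.8 RPKM in KO (SD, n = 5) and 173 ± 8.44 RPKM in WT kidneys (SD, n = 4), and the direction of its difference changes with the scaling. No link between these regulators and the transporters was tested.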
